A study of Mus musculus with 61 samples.

Results

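The 10 genes described here encode Eph receptors of the mouse: Epha1, Epha2, Epha3, Epha4, Epha5, Epha7, Ephb1, Ephb2, Ephb3 and Ephb4. They were the rows of the expression table with these gene symbols, 10 of 55052 genes, and they were followed through every wild-type stage and every mutant of a study of stembryos. Stembryos, also called gastruloids, grow from a small cluster of embryonic stem cells into an elongated body with tissues of the embryonic trunk. They do so after a pulse of Chiron, an inhibitor of GSK-3 that activates Wnt signalling and was withdrawn at 72 h after aggregation. The study used them to ask how CTCF-binding sites (CBS) in the HoxD cluster set the order in which Hoxd genes are switched on, and the Eph receptors were no target of its mutations.

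All libraries held RNA of pooled stembryos, given as FPKM, a count of fragments scaled to transcript length and to the mapped fragments of the library, so that levels can be compared between genes. A wild-type (wt) time course had 2 libraries at each of 72, 84, 96, 108, 120, 132, 144 and 168 h after aggregation, 16 in all. Wild-type libraries outside the time course served as controls for the mutants, 4 each at 96 h and 120 h, with 2 more at 144 h. The mutants were Del(CBS1), Del(CBS2), Del(CBS1-2), Del(CBS1-5), Del(CBS4), Del(d1-d4), Del(sub-TAD1) and Ins(2xCBS-d4d8), with 35 libraries in 17 groups of genotype and stage. Each group had 2 libraries, except Del(sub-TAD1) at 96 h, which had 3. Each Del(CBS) line lacks the CTCF sites in its name, CBS1 to CBS5 in Del(CBS1-5), and Del(d1-d4) lacks the segment from Hoxd1 to Hoxd4. Ins(2xCBS-d4d8) carries a cassette with a pair of additional CTCF sites between Hoxd4 and Hoxd8, and Del(sub-TAD1) lacks the regulatory landscape next to the cluster and carries an Mtx2 transgene. Most mutants were clones made by CRISPR in the wild-type stem cell line, Del(CBS1-2) on top of Del(CBS1), whereas the stem cells of Del(sub-TAD1) and of Del(CBS1-5) came from mouse blastocysts. In these 2 mutants, cell line and mutation cannot be told apart. Up to 96 h stembryos were collected without selection, and later only elongating ones were taken.

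Eph receptors form the largest family of receptor tyrosine kinases. They bind ephrins on the surface of neighbouring cells, and the contact signals into both cells, usually so that the cells repel each other or adhere less. EphA receptors mostly bind ephrin-A proteins, which are held to the membrane by a lipid anchor, and EphB receptors mostly bind the transmembrane ephrin-B proteins, with EphA4 binding both classes. In the embryo they are known for cutting boundaries between somites and between hindbrain segments, for guiding axons and neural crest cells, and, through EphB4 and ephrin-B2, for separating veins from arteries.

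Inferred depth was 14.4 M to 23.0 M fragments per library in the time course and 18.1 M to 37.3 M in the others. All 10 receptors reached a mean of 1 FPKM in at least 1 group, the filter for the tests, which kept 17098 genes. Epha3 passed through the stages and mutants where it was high, with such a mean in 6 of 28 groups, and Epha5 had one in 22. The libraries fell into 2 sets by their mitochondrial messenger RNA, with mt-Co3 at 995 to 1718 FPKM in 28 libraries and at most 2.76 FPKM in 33. The latter were the time course, replicate 4 of the wt controls of 96 h and of 120 h, wt at 144 h, all of Ins(2xCBS-d4d8) and Del(CBS4), and the groups Del(CBS1-5) 144 h and Del(sub-TAD1) 96 h. Of the genes tested, 2329 did not overlap between these sets. In bulk RNA, fewer cells of a type and less RNA per cell cannot be told apart. The labels do not say whether libraries of a group came from separate cultures, although the study's methods speak of biological replicates, and the p-values measure the spread between these libraries.

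The receptors occupied very different levels at the outset and changed order over the time course. At 72 h Epha1 was at 178 and 171 FPKM and Epha2, a receptor of pluripotent and epithelial cells, was at 98.0 and 89.2 FPKM. Together they made up 80.1% of the summed FPKM of the 10 receptors in both libraries. Ephb4 followed at 43.0 and 40.5 FPKM, Epha7 and Ephb2 near 8 FPKM with overlapping replicates, then Epha4 and Ephb3, which also overlapped, and Ephb1, Epha5 and Epha3 were under 1 FPKM. From 96 h on Ephb4 was the highest of the 10. At 168 h the means ran from Ephb4 at 29.5 FPKM through Ephb2 at 27.4, Epha4 at 19.5, Ephb3 at 9.85, Epha3 at 8.48, Epha7 at 7.67, Ephb1 at 6.12, Epha2 at 5.18 and Epha5 at 1.83 FPKM to Epha1, which was listed at 0. Only Ephb1 and Epha2 among those neighbours had overlapping replicates. The summed level of the 10 receptors was 345 and 325 FPKM at 72 h and 119 and 112 FPKM at 168 h, while the EphB share of it was 16.2% and 16.1% at 72 h and 62.9% and 63.3% at 168 h. Without Epha1 the EphB share was 33.5% and 33.9% at 72 h.

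**Figure D1:**
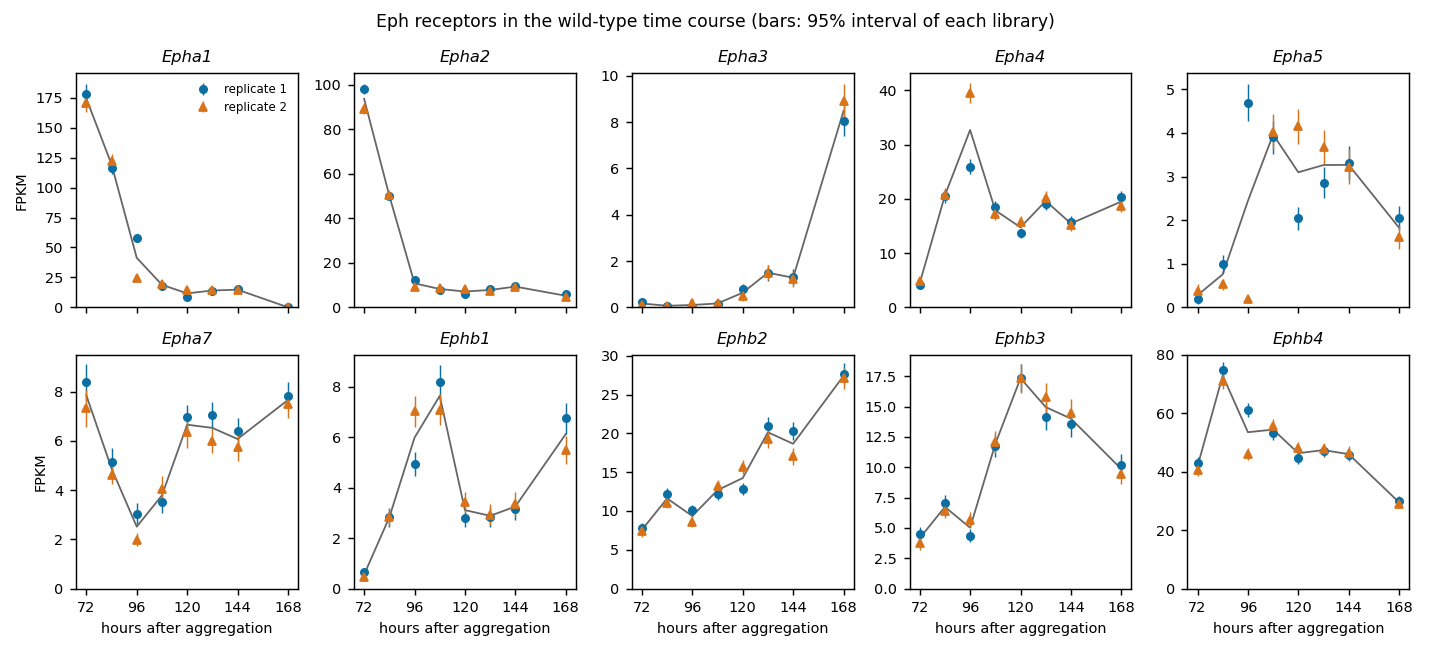
FPKM (vertical axis, from 0, a scale for each gene) against hours after aggregation (horizontal axis) for the 10 receptors in the wild-type time course, with replicate 1 as circles, replicate 2 as triangles, bars for the 95% interval deposited with each value and a line through the mean of both. Epha1 and Epha2 start at 171 FPKM or more and at 89.2 FPKM or more and drop by 96 h, Ephb1 peaks at 108 h, Ephb3 at 120 h, and Epha3 and Ephb2 are highest at 168 h.

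Every one of the 10 receptors changed over the time course by limma's F test across the 8 stages (adjusted p at most 6.94e-06), against a background of 61.8% of all genes tested. Between 72 h and 168 h, 9 of 10 passed the test, where 48.2% of all genes did. Higher at 168 h were Epha3 (log2 difference 5.05 ± 0.33, standard error), Ephb1 (3.26 ± 0.19), Epha5 (2.39 ± 0.57), Epha4 (2.12 ± 0.21), Ephb2 (1.84 ± 0.11) and Ephb3 (1.23 ± 0.13), with adjusted p at most 0.000557 by limma. Lower were Epha2 (-4.16 ± 0.30) and Ephb4 (-0.50 ± 0.10), with adjusted p of 4.85e-14 and 0.000111. The call on Epha1 rested on values listed at 0. Epha7 was at 8.39 and 7.32 FPKM at 72 h and at 7.84 and 7.49 FPKM at 168 h, and had passed through lower levels between. The median log2 difference was 1.54 over the 10 receptors and 0 over all genes tested. Each of the 9 calls remained when any 1 library was left out (highest adjusted p 0.0179, for Epha5).

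Neighbouring stages differed in 29 of 70 receptor comparisons, 17 upward and 12 downward, against 10.2% over all genes and the same 7 steps. From 72 h to 84 h 7 of 10 receptors passed (16.3% of all genes), from 84 h to 96 h 7 (20.7%), from 96 h to 108 h 4 (9.45%), from 108 h to 120 h 4 (7.06%), from 120 h to 132 h 1 (2.46%), from 132 h to 144 h 0 (5.42%, limma, with 0 also at an unadjusted p under 0.05) and from 144 h to 168 h 6 (9.87%). Of all 17098 genes, 2909 had an unadjusted p under 0.05 from 132 h to 144 h (limma). By label, the receptors thus moved mostly before 120 h and again in the last step. By the expression of 6167 other genes, the libraries labelled 120 h were closest to 138 and 128 h. Those labelled 132 h were both closest to 129 h. The labels of 120 h are therefore uncertain as a measure of stage, and the part of this in the steps to and from 120 h was not tested. Of the 29 calls, 13 remained without any 1 library.

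Among the EphA receptors, Epha1 and Epha2 were the highest at 72 h, the first stage measured. Epha2 was at 98.0 and 89.2 FPKM at 72 h, at 49.8 and 50.4 FPKM at 84 h and at 12.2 and 9.26 FPKM at 96 h, without overlap at either step, and then stayed between 4.58 and 9.35 FPKM to the end. Its fall from 84 h to 96 h had a log2 difference of -2.22 ± 0.30 (adjusted p = 6.45e-07, limma), and this call remained without any 1 library. The earlier step, -0.90 ± 0.30 (adjusted p = 0.0344), lost its call without any of the 4 libraries, with adjusted p between 0.0930 and 0.165. The summed FPKM of 10 pluripotency genes, among them Pou5f1, moved in the same stages, at 1231 to 1250 FPKM at 72 h, 613 to 639 FPKM at 84 h and 82.8 to 89.7 FPKM at 96 h. Most of the sum was Pou5f1, at means of 1127, 542 and 49.0 FPKM in these stages. From 72 h to 84 h the list did not move as one. Sox2 (log2 difference 1.87) and Fgf4 (4.47) were called higher, Nanog (-2.54) was the only one called lower, and Pou5f1 was not called. From 84 h to 96 h 4 genes of that list were lower and 1 was higher, where 20.7% of all genes passed. A list of primitive streak and epiblast genes summed to 1615 to 1705 FPKM at 72 h, 571 to 760 FPKM at 84 h and 190 to 270 FPKM at 96 h. The part of either list in the fall of Epha2 was not tested.

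Epha1, whose product is an atypical member of the A class expressed in epithelia, was at 178 and 171 FPKM at 72 h, 117 and 122 FPKM at 84 h, 57.8 and 24.8 FPKM at 96 h, 17.8 and 19.8 FPKM at 108 h and 8.74 to 15.3 FPKM from 120 h to 144 h. No library of 72 h or 84 h overlapped one of a later stage. In both libraries of 168 h, and in replicate 1 of wt at 144 h outside the time course, it was listed at 0. The 3′ end of Epha1 overlaps that of Zyx on the opposite strand by 1727 bases, and in those 3 libraries Zyx was at 44.6 to 62.4 FPKM, within its range of 37.1 to 121 FPKM in the other 58 libraries, where the lowest Epha1 was 4.24 FPKM. No fold is therefore given against these 3 values, and the share of reads that the counting assigned to either gene was not tested. In the fit with these values kept, the spread they added left each step of Epha1 before 144 h outside the threshold. With them treated as missing, a choice made after seeing the data, Epha1 fell by 1.65 on the log2 scale from 84 h to 96 h (adjusted p = 9.16e-07), by 1.01 from 96 h to 108 h (adjusted p = 0.00277) and by 0.73 from 108 h to 120 h (adjusted p = 0.0403), all by limma. Over 72 h to 144 h, the F test gave Epha1 an adjusted p of 1.64e-17, where 57.3% of all genes passed.

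Epha4, the receptor that binds both ephrin classes, rose from 4.04 and 4.81 FPKM at 72 h to 20.5 and 20.8 FPKM at 84 h, a log2 difference of 2.2 ± 0.21 (adjusted p = 2.83e-10, limma) that remained without any 1 library. At 96 h its libraries read 25.9 and 39.5 FPKM, and at 108 h 18.6 and 17.2 FPKM. The calls of these steps, upward by 0.63 ± 0.21 (adjusted p = 0.0250) and downward by -0.84 ± 0.21 (adjusted p = 0.00654), depended on single libraries. The first was lost without either library of 84 h or replicate 2 of 96 h, with adjusted p up to 0.461, and the later one without replicate 2 of 96 h or of 108 h, with adjusted p up to 0.255. From 108 h to 168 h Epha4 lay between 13.7 and 20.3 FPKM.

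Epha3 was low until 108 h, with 0.0240 to 0.213 FPKM in those 8 libraries. It read 0.779 and 0.479 FPKM at 120 h, 1.49 and 1.5 FPKM at 132 h, 1.32 and 1.23 FPKM at 144 h and 8.06 and 8.91 FPKM at 168 h. The last step, a log2 difference of 2.64 ± 0.33 (adjusted p = 5.44e-07, limma), was the largest rise of any receptor between neighbouring stages and remained without any 1 library. The rise from 108 h to 120 h, 1.43 ± 0.33 (adjusted p = 0.00577), was lost without replicate 1 of either stage, with adjusted p up to 0.132. On the log2(FPKM + 0.1) scale the changes of so low a gene are understated, and over all 61 libraries 6 values of Epha3 were at or under the level of 3 fragments. The summed FPKM of 10 spinal cord genes was 101.9 to 103.3 FPKM at 144 h and 374 to 405 FPKM at 168 h, and its part in the rise of Epha3 was not tested.

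Epha5, best known from axon guidance, had the replicates least alike. It read 0.180 and 0.375 FPKM at 72 h, 0.988 and 0.523 FPKM at 84 h, 4.70 and 0.183 FPKM at 96 h and 3.90 and 4.03 FPKM at 108 h. It lay between 1.60 and 4.16 FPKM later. The call from 96 h to 108 h (log2 difference 1.80 ± 0.57, adjusted p = 0.0384, limma) compared groups that overlap. It was lost without replicate 2 of 96 h, where the difference was -0.24, and without either library of 108 h. At 96 h the deposited 95% intervals of the replicates were separate in 9 of 10 receptors, and at other stages in at most 5. The share of all genes with separate intervals is not given here, so this count sets no receptor apart from other genes. The time course libraries of 96 h read 4.70 and 0.183 FPKM for Epha5 and 57.8 and 24.8 FPKM for Epha1. The ligand gene Efnb2 read 26.8 and 67.4 FPKM in them.

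Epha7, a receptor of the paraxial mesoderm and neural tube, went down and up again. From 8.39 and 7.32 FPKM at 72 h it went to 5.14 and 4.63 FPKM at 84 h and 3.04 and 1.99 FPKM at 96 h, and returned to 3.52 and 4.05 FPKM at 108 h and 6.97 and 6.35 FPKM at 120 h. All 3 steps called had groups that did not overlap: -0.67 ± 0.24 (adjusted p = 0.0485), -0.96 ± 0.24 (adjusted p = 0.00294) and, from 108 h to 120 h, 0.80 ± 0.24 (adjusted p = 0.0346), all by limma. The outer calls were lost without any 1 of their libraries, with adjusted p from 0.0906 to 0.246 and from 0.0582 to 0.235. The fall to 96 h was lost without replicate 2 of 96 h, with an adjusted p of 0.121.

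Among the EphB receptors, Ephb1 had the sharpest transient. It was at 0.657 and 0.449 FPKM at 72 h, at 2.83 and 2.82 FPKM at 84 h, at 4.94 and 7.02 FPKM at 96 h, at 8.19 and 7.09 FPKM at 108 h and at 2.80 and 3.42 FPKM at 120 h. The rises to 84 h (log2 difference 2.18 ± 0.19, adjusted p = 7.65e-11) and to 96 h (1.04 ± 0.19, adjusted p = 0.000108) and the fall to 120 h (-1.27 ± 0.19, adjusted p = 3.53e-05) had groups that did not overlap and remained without any 1 library. Ephb1 was again at 6.75 and 5.49 FPKM at 168 h, 0.89 ± 0.19 above 144 h (adjusted p = 0.00167, limma). That call was lost without replicate 1 of 168 h, with an adjusted p of 0.0582.

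Ephb3 peaked later. It read 4.34 and 5.68 FPKM at 96 h, 11.7 and 12.1 FPKM at 108 h and 17.3 FPKM in both libraries of 120 h, and came down to 10.2 and 9.48 FPKM at 168 h. The rise to 108 h (log2 difference 1.25 ± 0.13, adjusted p = 2.01e-08, limma) was the only call of a receptor between 96 h and 108 h that remained without any 1 library. The rise to 120 h (0.54 ± 0.13, adjusted p = 0.00598) and the fall from 144 h to 168 h (-0.50 ± 0.13, adjusted p = 0.00663) were lost without replicate 1 of 108 h or of 120 h and without replicate 2 of 144 h or of 168 h, with adjusted p up to 0.0691 and 0.0953. Ephb3 had earlier read 4.52 and 3.78 FPKM at 72 h and 7.04 and 6.42 FPKM at 84 h, a rise of 0.69 ± 0.13 (adjusted p = 0.000113) that remained without any 1 library. The fall from 84 h to 96 h (-0.43 ± 0.13, adjusted p = 0.0119) was lost without replicate 1 of either stage, with adjusted p up to 0.305.

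Ephb2 climbed in steps, from 7.75 and 7.39 FPKM at 72 h to 12.2 and 11.1 FPKM at 84 h, 12.8 and 15.7 FPKM at 120 h, 21.0 and 19.3 FPKM at 132 h and 27.7 and 27.1 FPKM at 168 h. The steps to 84 h (log2 difference 0.61 ± 0.11, adjusted p = 7.19e-05, limma) and to 168 h (0.56 ± 0.11, adjusted p = 0.000459) remained without any 1 library. Those to 96 h (-0.31 ± 0.11), 108 h (0.44 ± 0.11) and 132 h (0.50 ± 0.11) did not, with adjusted p up to 0.380, 0.179 and 0.314 without replicate 2 of 96 h, replicate 2 of 96 h or 108 h, and replicate 1 of 120 h or 132 h. The fall to 96 h was also lost without either library of 84 h.

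Ephb4, the venous receptor for ephrin-B2, was abundant at every stage. It rose from 43.0 and 40.5 FPKM at 72 h to 74.6 and 71.0 FPKM at 84 h (log2 difference 0.80 ± 0.10, adjusted p = 3.55e-07, limma), and was at 61 and 45.9 FPKM at 96 h. It lay between 44.5 and 55.6 FPKM from 108 h to 144 h and at 30.0 and 28.9 FPKM at 168 h (-0.64 ± 0.10 against 144 h, adjusted p = 4.15e-05). Both of these calls remained without any 1 library, and the fall to 96 h (-0.46 ± 0.10, adjusted p = 0.00117) was lost without replicate 2 of 96 h, with an adjusted p of 0.143. The summed FPKM of 10 endothelial genes was 4.47 to 6.58 FPKM at 72 h and 84 h, 38.5 to 40.9 FPKM at 144 h and 24.5 to 28.5 FPKM at 168 h. At the other stages it lay between 4.84 and 12.3 FPKM, apart from 1 library of 120 h at 67.5 FPKM. Its part in the level of Ephb4 was not tested.

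Epha4 and Ephb1 both rose from 72 h to 84 h and Epha1 and Epha2 were highest at 72 h and 84 h, and the stretches just upstream of these 4 genes show how different their starts are in sequence. All 10 genes had an entry in the promoter table of RefSeq, and the 250 bases before the annotated start are given for the 4 on mouse build GRCm38.p6, read 5′ to 3′ on the strand of the gene. Capitals mark matches, on either strand, to CCAAT (the CCAAT box), CTTTGAA or CTTTGAT (TCF/LEF, the factors of Wnt signalling), ATGCAAAT (the octamer of POU factors) or AGGTGTGA (T-box factors), and no match overlapped another. Epha1 lies at chr6:42373269-42373518 on the minus strand, Epha2 at chr4:141300971-141301220 on the plus strand, Epha4 at chr1:77515089-77515338 on the minus strand and Ephb1 at chr9:102354694-102354943 on the minus strand.
Epha1: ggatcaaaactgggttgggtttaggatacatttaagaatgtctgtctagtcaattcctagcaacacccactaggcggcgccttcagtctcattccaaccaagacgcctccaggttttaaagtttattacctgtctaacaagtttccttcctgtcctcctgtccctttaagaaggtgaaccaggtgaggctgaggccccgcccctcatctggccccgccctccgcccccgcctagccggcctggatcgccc
Epha2: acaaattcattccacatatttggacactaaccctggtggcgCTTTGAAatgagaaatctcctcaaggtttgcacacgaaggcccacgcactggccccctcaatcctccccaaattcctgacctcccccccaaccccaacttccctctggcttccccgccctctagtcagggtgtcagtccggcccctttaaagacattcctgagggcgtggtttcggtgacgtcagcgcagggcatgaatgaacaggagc
Epha4: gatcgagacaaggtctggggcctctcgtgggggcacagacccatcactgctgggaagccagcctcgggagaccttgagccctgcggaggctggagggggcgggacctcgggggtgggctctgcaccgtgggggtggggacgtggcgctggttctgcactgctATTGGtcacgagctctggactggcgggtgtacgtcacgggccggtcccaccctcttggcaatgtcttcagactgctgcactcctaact
Ephb1: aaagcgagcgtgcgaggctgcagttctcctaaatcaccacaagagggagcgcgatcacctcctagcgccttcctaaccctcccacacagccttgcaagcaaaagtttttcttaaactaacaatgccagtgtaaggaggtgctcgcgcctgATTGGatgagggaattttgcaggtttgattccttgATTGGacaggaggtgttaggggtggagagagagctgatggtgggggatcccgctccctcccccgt

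CCAAT, read as ATTGG from the other strand, was found in 5 of the 10 windows, those of Epha4, Epha7, Ephb1, Ephb2 and Ephb4, and in 33.8% of the 32851 promoters of the table. Ephb1 held it at 100 and at 65 bases before the start, which the results give as positions -100 and -65. Epha2 held CTTTGAA at position -209, a motif found in 4.46% of all promoters. CTTTGAT, ATGCAAAT and AGGTGTGA were in none of the 10 windows and in 3.21%, 1.60% and 1.12% of all. Pairs of C followed by G numbered 9 in the windows of Epha1 and Epha2, 10 in that of Ephb1 and 25 in that of Epha7, the highest of the 10, with a median of 6 over all promoters. Such matches describe the letters of these windows and no binding was measured here.

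Likeness to each receptor was measured by Pearson's r of log2(FPKM + 0.1) over the means of the 8 stages, among 12549 genes. The closest were Syk, Sh3bgrl2 and Tex2 for Epha2 (r from 0.993 to 0.998) and Cdca8, Iglon5 and Sox2ot for Epha3 (0.989 to 0.992). They were Kank1, Dync2li1 and Csrp1 for Epha4 (0.961 to 0.973) and Tnfaip1, Suv39h1 and Ube2h for Epha5 (0.979 to 0.982). For Epha7 they were Chst15, Ccdc181 and Tmem127 (0.967 to 0.982), and for Ephb1 Crabp1, Pth1r and Sufu (0.967 to 0.977). They were for Ephb2 Lonrf2, St8sia1 and Atp9a (0.989 to 0.994), for Ephb3 Oaz2, Lrrc32 and Dtx2 (0.976 to 0.981) and for Ephb4 Chst7, Sema6a and Dlg1 (0.948 to 0.958). For Epha1 over the 7 stages to 144 h they were Cep170b, Mapk4 and Pmm1 (0.996 to 0.998). With 8 points that share a time axis and libraries, many genes reach such values. Between receptors, r was highest for Epha3 and Ephb2 (0.912) and for Epha5 and Ephb3 (0.911), followed by Epha4 and Ephb1 (0.87). It was lowest for Epha1 and Epha3 (-0.89), with the values of Epha1 listed at 0 included, and for Epha2 and Epha5 (-0.87).

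The ligands and the rest of the family were measured in the same libraries. Of the 4 other Eph receptors of the table, Ephb6, which lacks kinase activity, passed the filter. It was at 4.61 and 3.45 FPKM at 72 h and at 5.61 and 5.00 FPKM at 168 h (log2 difference 0.40 ± 0.12, adjusted p = 0.00561, limma). Epha6, Epha8 and Epha10 stayed under the filter in every group.

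All 3 ephrin-B genes were higher at 168 h than at 72 h. Efnb3 went from 3.92 and 3.15 to 31.6 and 31.4 FPKM (log2 difference 3.13 ± 0.11), Efnb1 from 3.02 and 7.63 to 24.9 and 22.7 FPKM (2.28 ± 0.24) and Efnb2 from 4.84 and 6.46 to 17.3 and 18.2 FPKM (1.65 ± 0.45), with adjusted p at most 0.00252 by limma and no overlap. Efnb2 had its highest level earlier, 26.8 and 67.4 FPKM at 96 h after 5.46 and 5.76 FPKM at 84 h (2.90 ± 0.45, adjusted p = 8.56e-06), and 53.4 and 48.6 FPKM at 108 h. At that step 9 of 12 genes of a segment boundary list, among them Mesp2, were higher and 0 lower (limma), where 20.7% of all genes passed in either direction, and the list summed to 334 to 339 FPKM at 84 h and 756 to 773 FPKM at 96 h.

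Among the 5 ephrin-A genes, Efna2 (log2 difference 1.48 ± 0.16), Efna5 (1.27 ± 0.20) and Efna4 (0.57 ± 0.09) were higher at 168 h than at 72 h and Efna3 was lower (-0.66 ± 0.23, adjusted p = 0.0147, limma). Efna1, at 4.07 and 2.83 FPKM at 72 h and 4.42 and 4.86 FPKM at 168 h, did not pass that test (0.44 ± 0.26, adjusted p = 0.184). It had jumped to 33.5 and 31.6 FPKM at 84 h (3.22 ± 0.26, adjusted p = 1.05e-11) and was at 20.3 and 6.92 FPKM at 96 h (-1.45 ± 0.26, adjusted p = 7.45e-05). At the step of Efna1 to 84 h Epha4 was called higher, and so were Ephb1, Ephb2, Ephb3, Ephb4, Efna4, Efnb1 and Efnb3.

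**Figure D2:**
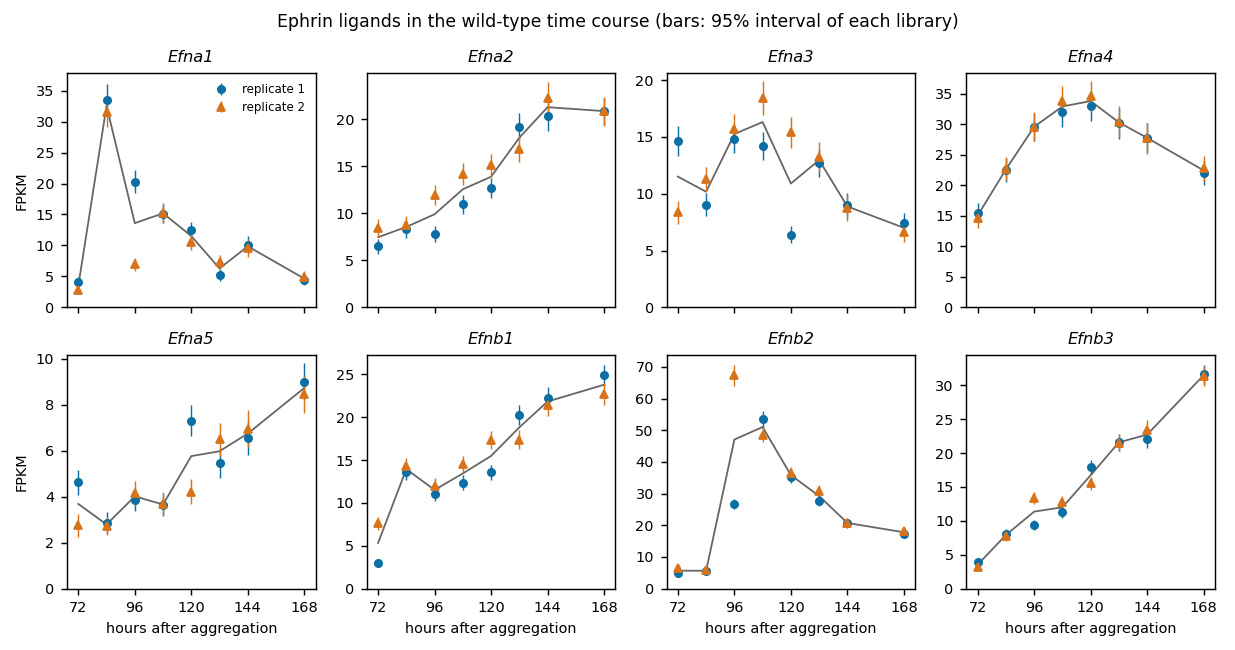
FPKM (vertical axis, from 0, a scale for each gene) against hours after aggregation (horizontal axis) for the 8 ephrin genes in the wild-type time course, with replicate 1 as circles, replicate 2 as triangles, bars for the 95% interval deposited with each value and a line through the mean. Efna1 peaks at 84 h with 33.5 and 31.6 FPKM, Efnb2 is highest at 96 h and 108 h, and Efnb3 is highest at 168 h with 31.6 and 31.4 FPKM.

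Of 30 listed genes for proteins that act with Eph receptors, such as adaptors, kinases and exchange factors, 28 were tested and 13 were higher and 7 lower at 168 h than at 72 h, with a median log2 difference of 0.30. Over all genes tested 4327 were higher and 3907 lower, with a median of 0. Chn2, a chimaerin related to the one that acts downstream of EphA4 in axons, had the largest difference of the list (-3.52 ± 1.15, adjusted p = 0.0105, limma). Fyn, a kinase of the Src family, went from 17.5 to 43.7 FPKM on average (1.36 ± 0.17, adjusted p = 1.63e-08).

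The wild-type controls outside the time course gave another look at the change from 96 h to 120 h, with 4 libraries at each stage. All 10 receptors passed the test, 5 upward and 5 downward, where 27.1% of all genes did, and each had the sign of its difference between the time course libraries of the same stages. Ephb3 read 3.31, 3.60, 4.53 and 3.73 FPKM at 96 h and 15.7, 15.3, 13.9 and 15.2 FPKM at 120 h, which do not overlap (log2 difference 1.96 ± 0.09, adjusted p = 9.94e-19, limma). Ephb2 followed at 5.67 to 6.72 FPKM and 10.7 to 12.7 FPKM (0.91 ± 0.08) and Epha7 at 1.71 to 3.49 and 5.06 to 9.33 FPKM (1.40 ± 0.17). Epha3 was at 0.0371 to 0.0711 and 0.206 to 0.824 FPKM (1.48 ± 0.24) and Epha5 was at 1.23 to 1.78 and 3.37 to 7.56 FPKM (1.43 ± 0.40). These 5 did not overlap between the stages, and the share of all genes without overlap is not given here.

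Downward, Epha1 went from 36.1, 38.6, 45.5 and 36.4 FPKM to 9.90, 8.87, 11.9 and 11.5 FPKM (log2 difference -1.89 ± 0.49, adjusted p = 0.00306, limma) and Epha4 from 20.6, 20.1, 22.1 and 40.3 FPKM to 12, 11.6, 12.6 and 18.7 FPKM (-0.87 ± 0.15, adjusted p = 1.29e-05). Ephb4 went from 41.1 to 49.4 FPKM to 31.0 to 36.5 FPKM (-0.39 ± 0.07). Ephb1 (-0.52 ± 0.14, adjusted p = 0.00339) and Epha2 (-0.59 ± 0.21, adjusted p = 0.0338) overlapped between the stages. The call on Epha2 was lost in 5 of 8 fits without 1 library, those without replicate 3 or 4 of 96 h or replicate 1, 2 or 4 of 120 h, with adjusted p up to 0.276, and the other 9 calls remained without any 1 library. Replicate 3 was the highest library for Epha2 at both stages, 16.8 and 11.2 FPKM, as it was for the pluripotency list, which summed to 162 and 131 FPKM there and to between 51.7 and 67.6 FPKM at 96 h and between 32.3 and 60.4 FPKM at 120 h in the other 3.

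**Figure D3:**
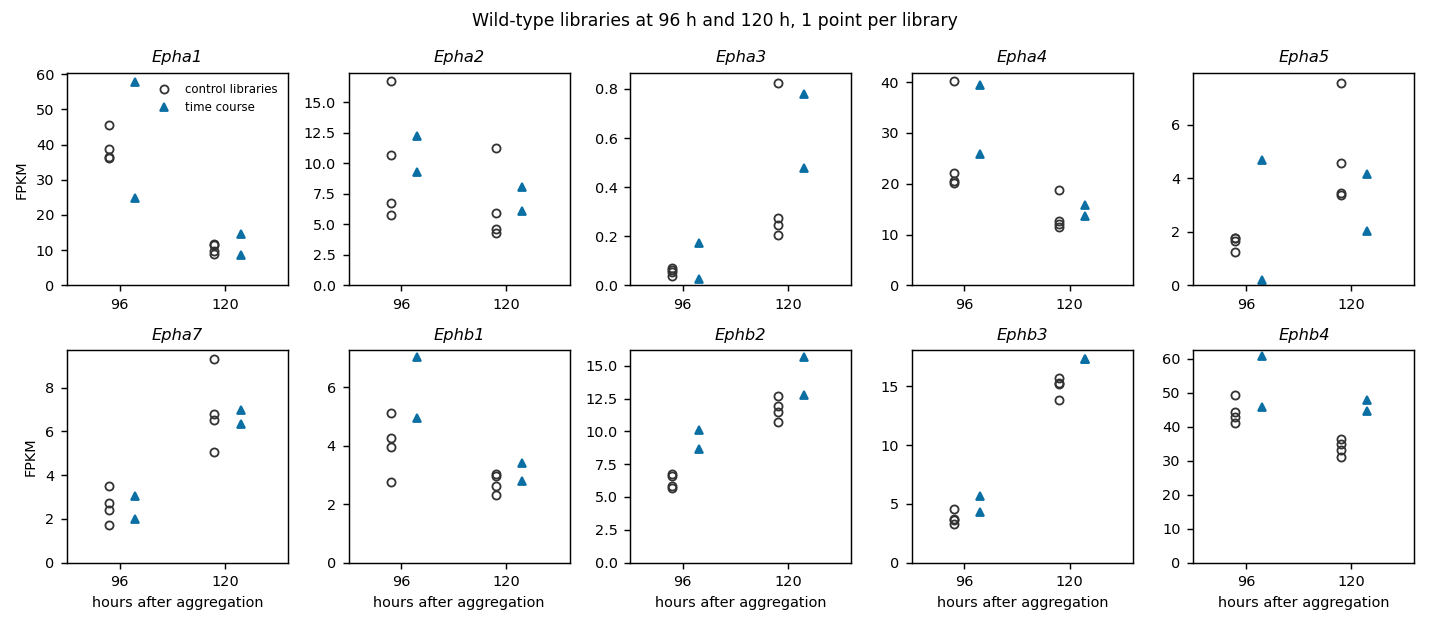
FPKM of each wild-type library (vertical axis, from 0, a scale for each gene) at 96 h and 120 h after aggregation (horizontal axis) for the 10 receptors, with open circles for the 4 control libraries of each stage and triangles for the 2 time course libraries. The control libraries of the stages overlap for Epha2 and Ephb1 and not for the other receptors, and the share of all genes without overlap is not given.

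The mutants asked whether changes at the HoxD cluster go with other levels of these receptors, which lie on other chromosomes than HoxD. Of 170 comparisons of a receptor with wt of the same stage, 31 passed the test, 18 higher and 13 lower, where 12.1% of such comparisons passed over all genes. With controls of the mutant's library set 24 passed, 9 higher and 15 lower. With all wild-type libraries of the stage 20 passed, 9 higher and 11 lower. The 12.1% belongs to the first controls, and no such share is given for the other choices. Whether the receptors exceed it there is therefore not shown. With the first controls and without Epha1, 29 of 153 passed. Of the 31, 16 remained when the controls were taken from the library set of the mutant, 18 with all wild-type libraries of the stage and 8 without any 1 library. 5 remained under all 3 of these changes. They were Epha2 in Del(CBS1-5) at 96 h and 144 h, Epha3 in it at 144 h, and both Ephb3 and Epha7 in Del(sub-TAD1) at 96 h. At 144 h all wild-type libraries were of the set with low mt-Co3. Both changes of controls therefore used the same libraries there and were no separate checks.

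By mutant, the receptors called were 4 of 10 in Del(CBS1-5) at 96 h (14.8% of all genes), 3 at 120 h (13.3%) and 6 at 144 h (23.7%), 6 in Del(sub-TAD1) at 96 h (40.0%) and 2 at 120 h (6.15%), and 2 in Ins(2xCBS-d4d8) at 96 h (27.9%) and 1 at 120 h (26.9%). They were 1 in Del(CBS4) at 120 h (37.5%) and 3 at 144 h (2.05%), 1 in Del(CBS1-2) at 96 h (4.49%), 1 in Del(CBS1) at 120 h (2.1%) and 1 in Del(d1-d4) at 120 h (1.85%). Limma called 0 of 10 receptors in Del(CBS1) at 96 h (1.23%), Del(CBS1-2) at 120 h (2.35%) and Del(d1-d4) at 96 h (1.19%). The same held for Del(CBS2) at 96 h (0.298%) and 120 h (0.193%). In this order 2, 3, 2, 2 and 3 of the 10 receptors had an unadjusted p under 0.05 by limma. Of all 17098 genes 2448, 3236, 2705, 2559 and 1811 did. The high backgrounds of Ins(2xCBS-d4d8), of Del(CBS4) at 120 h and of Del(sub-TAD1) at 96 h were those of mutants from the library set with low mt-Co3 compared with controls mostly from the other set. Scaling the libraries to the same upper quartile moved the median log2 difference of all genes from 0.06 to 0.18 in Del(sub-TAD1) at 96 h, from 0.03 to 0.17 in Ins(2xCBS-d4d8) at 96 h, from 0 to 0.15 in it at 120 h and from -0.01 to 0.11 in Del(CBS4) at 120 h.

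**Figure D4:**
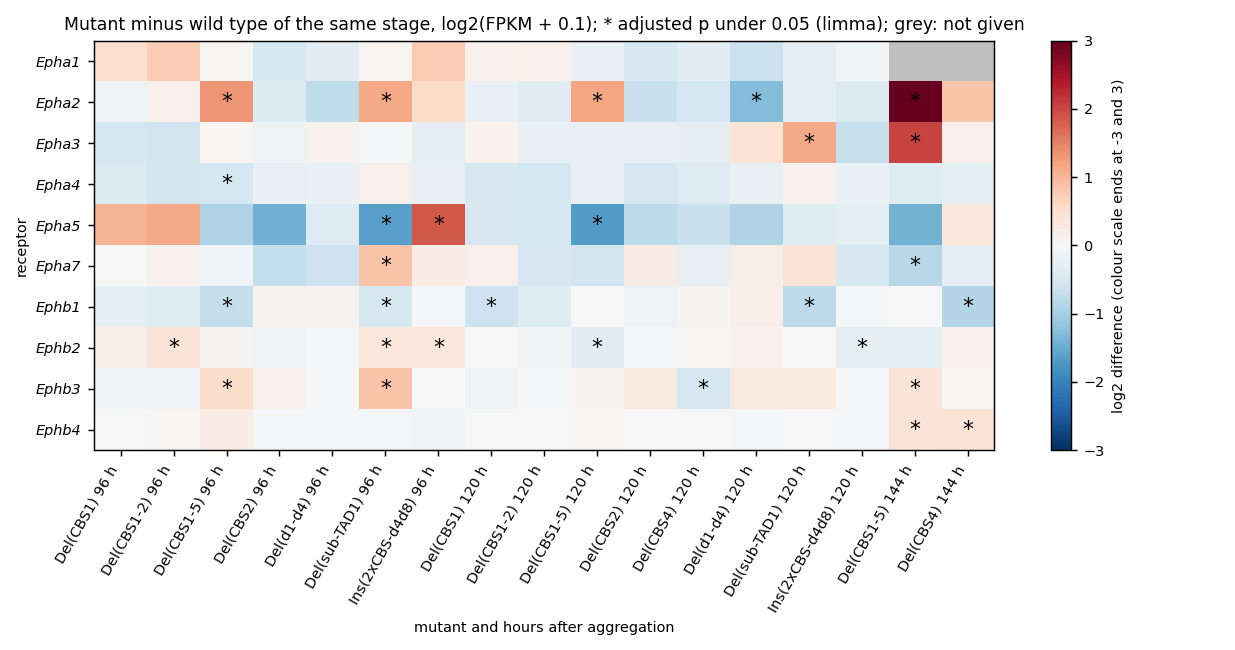
Log2 difference of each mutant from wild type of the same stage on the log2(FPKM + 0.1) scale (colour, red higher and blue lower, ending at -3 and 3) for the 10 receptors (rows) and the 17 groups of mutant and hours after aggregation (columns), with an asterisk where the adjusted p of limma was under 0.05. Epha2 at 144 h in Del(CBS1-5) has the largest marked difference, 3.03, and Epha1 at 144 h is grey because 1 of its wt libraries was listed at 0.

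Epha2 was higher in Del(CBS1-5) at every stage measured. At 144 h it read 21.1 and 22.2 FPKM, against 2.44 and 2.7 FPKM in wt outside the time course and 9.35 and 9.20 FPKM in the time course, with no overlap with either. The log2 difference was 3.03 ± 0.30 (adjusted p = 1.30e-09, limma) against the former and 2.12 against all 4 libraries (adjusted p = 2.39e-05). At 96 h it read 23.2 FPKM in both libraries, above each of the 4 controls at 5.76, 6.78, 16.8 and 10.7 FPKM (1.33 ± 0.26, adjusted p = 0.000529). At 120 h 12.9 and 14.7 FPKM stood against 4.63, 4.28, 11.2 and 5.93 FPKM (1.18 ± 0.26, adjusted p = 0.00242), a call lost without replicate 2 of the mutant (adjusted p = 0.0639) and with controls of the same library set (1.17, adjusted p = 0.0551). The effect was larger at 144 h than at 120 h by 1.85 on the log2 scale (adjusted p = 0.00254, limma), which was no longer called with controls of the same library set or with the time course among the controls.

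The pluripotency genes stood high in the same libraries. Their summed FPKM was 309 to 320 in Del(CBS1-5) at 96 h, 201 to 224 at 120 h and 372 to 382 at 144 h, against 51.7 to 162, 32.3 to 131 and 69.7 to 74.3 in wt. Most of the sum in wt at 144 h was Sox2, at a mean of 66.3 FPKM there and of 35.4 FPKM in Del(CBS1-5). Of the 10 genes of the list 8 were higher at 96 h (14.8% of all genes passed in either direction). At 120 h 7 were higher (13.3%) and at 144 h 8 (23.7%), where 1 was lower. Efnb2, the ephrin-B2 gene, read 6.0 and 8.12 FPKM in Del(CBS1-5) at 96 h, under the controls at 32.5, 30.2, 13.1 and 51.5 FPKM (log2 difference -2.02 ± 0.39, adjusted p = 0.000536, limma). Pou5f1 was at 200 to 207 FPKM in Del(CBS1-5) at 144 h, at 1.25 to 3.30 FPKM in wt and at 20.8 to 23.8 FPKM in the time course at that stage. By the expression of 6167 other genes, the Del(CBS1-5) libraries of 96 h were closest to the time course at 91 h, where Epha2 would lie at 27.1 FPKM, and those of 144 h to 120 and 121 h, where it would lie at 7.11 FPKM against the 21.6 FPKM found. The wt controls of 144 h were closest to 154 and 155 h, where Epha2 would lie at 7.48 FPKM, against the 2.57 FPKM found. This estimate placed time course libraries up to 18 h from their labels, 14 of 16 within 5 h, and the others were those of 120 h. The part of the pluripotency genes and of stage in the level of Epha2 was not tested.

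Epha2 also differed in 2 other mutants. In Del(sub-TAD1) at 96 h it read 19.6, 20.8 and 21.0 FPKM, above the 4 controls (log2 difference 1.15 ± 0.23, adjusted p = 0.000303, limma), a call that remained without any 1 library but not with controls of the same library set (0.93, adjusted p = 0.0650). The pluripotency list summed to 88.0, 231 and 259 FPKM in the same 3 libraries and these lay closest to the time course at 92 to 94 h, where Epha2 would be at 21.7 FPKM. Their part was not tested. At 120 h Del(sub-TAD1) read 5.40 and 4.56 FPKM, and the effect was lower there than at 96 h by -1.43 (adjusted p = 0.00478). In Del(d1-d4) at 120 h Epha2 read 2.43 and 2.32 FPKM, under all 4 controls (-1.31 ± 0.26, adjusted p = 0.00434), which was lost without either mutant library, with adjusted p up to 0.135, and with controls of the same library set (adjusted p = 0.124).

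**Figure D5:**
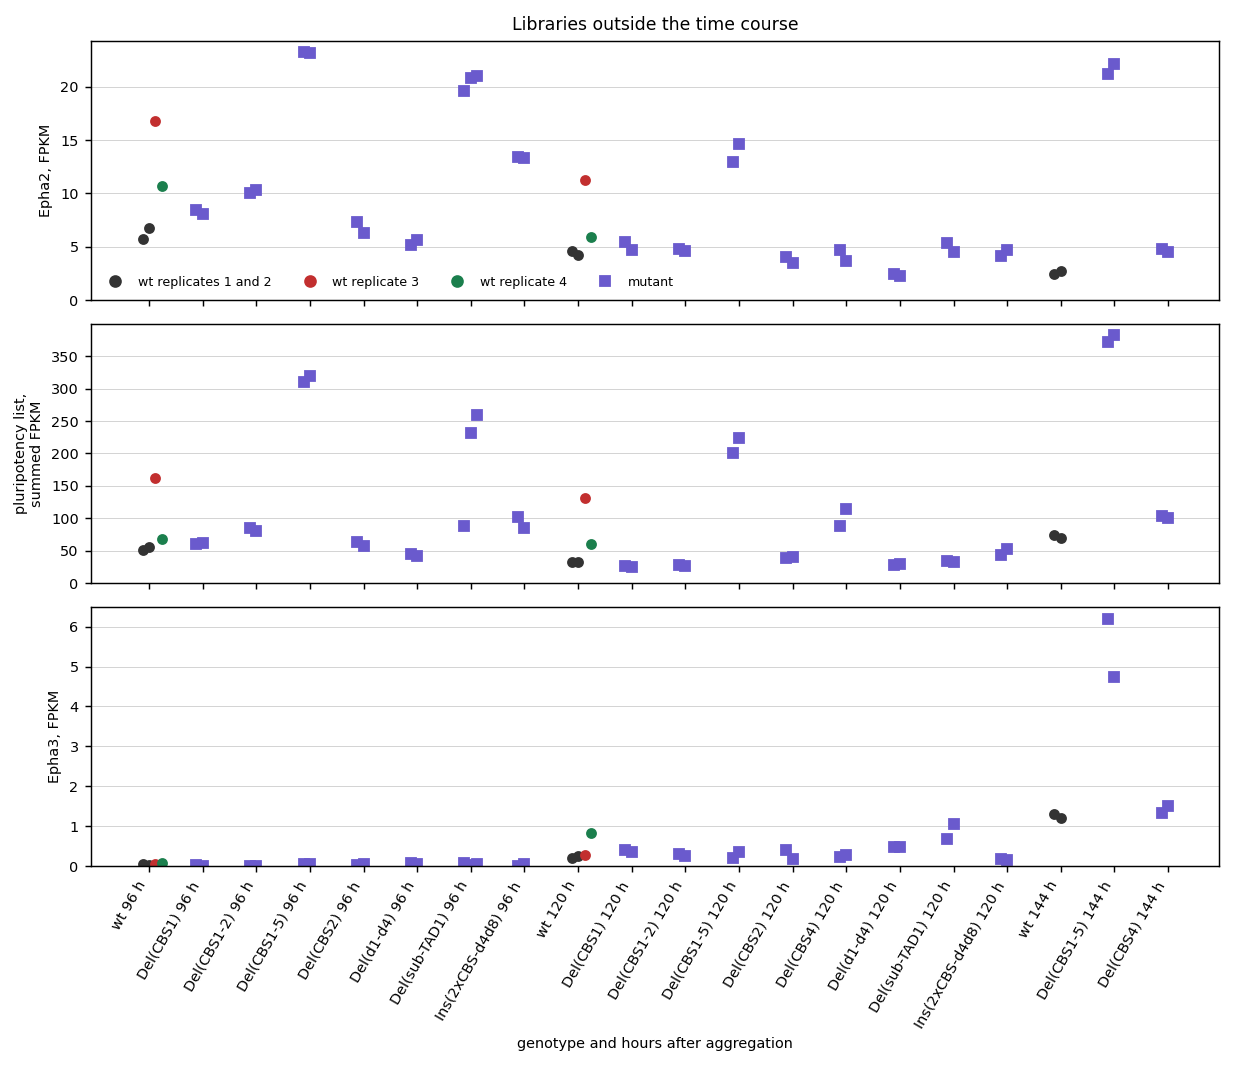
Each library outside the time course, grouped by genotype and hours after aggregation (horizontal axis), with Epha2 in FPKM (top), the summed FPKM of 10 pluripotency genes (middle) and Epha3 in FPKM (bottom), all axes from 0, wt as circles (replicate 3 in red, replicate 4 in green) and mutants as squares. Del(CBS1-5) stands at 12.9 FPKM or more for Epha2 at each stage and at 201 FPKM or more for the pluripotency list, and for Epha3 it is highest at 144 h with 6.19 and 4.73 FPKM.

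Epha3 at 144 h read 6.19 and 4.73 FPKM in Del(CBS1-5), 1.32 and 1.21 FPKM in wt and 1.32 and 1.23 FPKM in the time course, so that both wild-type series lay at the same level under the mutant. The log2 difference was 2.02 ± 0.33 (adjusted p = 1.70e-05, limma) and 2.01 with all wt libraries (adjusted p = 3.20e-06). Wild type reached such levels at 168 h, 8.06 and 8.91 FPKM, while the Del(CBS1-5) libraries were closest to 120 and 121 h, where Epha3 would lie at 0.665 FPKM. For the wt controls of 144 h, closest to 154 and 155 h, it would lie at 4.43 FPKM, against the 1.26 FPKM found. Spinal cord genes summed to 55.5 to 56.9 FPKM in these mutant libraries, to 168 to 193 FPKM in wt, with 8 of 10 lower in the mutant (23.7% of all genes passed in either direction), and to 101.9 to 103.3 FPKM in the time course at that stage. Their part and that of stage in the level of Epha3 were not tested. The effect on Epha3 was larger at 144 h than at 120 h by 2.25 (adjusted p = 0.00103). In Del(sub-TAD1) at 120 h Epha3 read 0.687 and 1.06 FPKM against 0.206, 0.245, 0.275 and 0.824 FPKM, which overlap (1.13 ± 0.29, adjusted p = 0.0140), and this was lost without replicate 1 or 2 of wt or replicate 2 of the mutant, with adjusted p up to 0.333.

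Epha5 differed in both directions. In Ins(2xCBS-d4d8) at 96 h it read 6.35 and 5.84 FPKM, above the controls at 1.23, 1.78, 1.67 and 1.78 FPKM and above both time course libraries (log2 difference 1.86 ± 0.49, adjusted p = 0.00536, limma). Without replicate 1 of the mutant the adjusted p was 0.0661. In Del(sub-TAD1) at 96 h it read 0.432, 0.413 and 0.502 FPKM, under the controls (-1.63 ± 0.43, adjusted p = 0.00317), a call that remained without any 1 library and was lost with controls of the same library set (adjusted p = 0.0585), which include the time course library at 4.70 and the one at 0.183 FPKM. In Del(CBS1-5) at 120 h 1.49 and 1.18 FPKM stood under 3.46, 3.37, 4.59 and 7.56 FPKM (-1.68 ± 0.49, adjusted p = 0.0199), which was lost without either mutant library or replicate 4 of wt, with adjusted p up to 0.179.

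Epha7 and Ephb3 were higher in Del(sub-TAD1) at 96 h. Epha7 read 4.72, 4.40 and 4.74 FPKM against 1.71, 2.40, 2.75 and 3.49 FPKM (log2 difference 0.86 ± 0.18, adjusted p = 0.000537, limma). Ephb3 read 7.20, 6.53 and 6.85 FPKM against 3.31, 3.60, 4.53 and 3.73 FPKM (0.85 ± 0.10, adjusted p = 5.94e-08). Neither overlapped the controls, and against controls of their own library set the differences were 0.72 (adjusted p = 0.0215) and 0.59 (adjusted p = 0.000509). At the stage closest to these libraries the time course would put Epha7 at 3.17 FPKM and Ephb3 at 5.49 FPKM. At 120 h Ephb3 read 18.9 and 18.0 FPKM, and its effect was lower there than at 96 h by -0.55 (adjusted p = 0.00663). In Del(CBS1-5) Ephb3 read 5.74 and 5.22 FPKM at 96 h (0.53 ± 0.11, adjusted p = 0.000990), which was lost without replicate 1 of the mutant (adjusted p = 0.0511). In Del(CBS4) at 120 h it read 12 and 9.17 FPKM, under the controls at 13.9 to 15.7 FPKM (-0.51 ± 0.11, adjusted p = 0.000634), which was lost without replicate 2 of the mutant (adjusted p = 0.0847).

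Ephb1 was lower wherever it was called in a mutant. It read 2.33 and 2.41 FPKM in Del(CBS1-5) at 96 h (log2 difference -0.71 ± 0.17, adjusted p = 0.00337, limma) and 3.70, 2.57 and 2.29 FPKM in Del(sub-TAD1) at 96 h (-0.48 ± 0.15, adjusted p = 0.00948), against 4.25, 3.95, 2.77 and 5.13 FPKM in wt. At 120 h it read 1.44 and 1.64 FPKM in Del(sub-TAD1) (-0.78 ± 0.17, adjusted p = 0.00254) and 1.81 and 1.66 FPKM in Del(CBS1) (-0.62 ± 0.17, adjusted p = 0.0392), against 3.01, 2.97, 2.63 and 2.31 FPKM. At 144 h it read 2.56 and 2.45 FPKM in Del(CBS4), against 4.89 and 4.53 FPKM (-0.88 ± 0.19, adjusted p = 0.00756), while the time course stood at 3.14 and 3.36 FPKM. All 5 were lost without at least 1 library, with adjusted p up to 0.0589, 0.1, 0.105, 0.437 and 0.123 in this order. The libraries were replicate 1 of Del(CBS1-5), replicate 2 or 3 of Del(sub-TAD1) at 96 h and replicate 1 of it at 120 h. For Del(CBS1) they were any library but replicate 4 of wt, and for Del(CBS4) replicate 1 of wt or either mutant library.

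The other calls were small or rested on 1 choice of controls. Ephb2 lay 0.39 ± 0.09 (Del(CBS1-2)), 0.33 ± 0.08 (Del(sub-TAD1)) and 0.35 ± 0.09 (Ins(2xCBS-d4d8)) above wt at 96 h on the log2 scale, and against controls of their own library set the latter 2 were -0.09 and -0.07. At 120 h its log2 difference was -0.33 ± 0.09 in Del(CBS1-5) and -0.30 ± 0.09 in Ins(2xCBS-d4d8). Of these 5 calls of Ephb2, that in Del(sub-TAD1) remained without any 1 library, and the others were lost without 1 or either library of the mutant, with adjusted p up to 0.270. Ephb4 at 144 h had log2 differences of 0.39 ± 0.10 in Del(CBS1-5) and 0.40 ± 0.10 in Del(CBS4), which were 0.04 and 0.05 with the time course among the controls. Here wt outside the time course read 29.0 and 27.9 FPKM and the time course 45.6 and 46.4 FPKM. Epha7 at 144 h in Del(CBS1-5), at 6.79 and 5.80 FPKM, was called lower (-0.82 ± 0.24, adjusted p = 0.00967, limma) than wt at 11.1 and 11.3 FPKM, while the time course stood at 6.42 and 5.74 FPKM. Without replicate 2 of the mutant or either library of wt the adjusted p of Epha7 was 0.0510 to 0.1, and without replicate 2 of either group that of Ephb4 in Del(CBS1-5) was up to 0.198. In Del(CBS4) Ephb4 was lost without any 1 library, with adjusted p up to 0.242. Ephb3 at 144 h in Del(CBS1-5) (0.38 ± 0.13) and Epha4 at 96 h in it (-0.53 ± 0.18) were both lost without either mutant library, and also without replicate 2 of wt for Ephb3 and replicate 4 of wt for Epha4, with adjusted p up to 0.217 and 0.220. With the values listed at 0 as missing, Epha1 was called higher at 96 h in Del(CBS1-2), at 63.5 and 67.7 FPKM (0.75, adjusted p = 0.0220), and in Ins(2xCBS-d4d8), at 69.7 and 63.4 FPKM (0.77, adjusted p = 0.00412), both above the 4 controls. Its differences at 144 h, 0.49 in Del(CBS1-5) and 0.69 in Del(CBS4), were not called.

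Tests of whether a mutant's effect differed between its stages called 11 of 90 receptor comparisons, where 4.43% passed over all genes. Without Epha1 they were 9 of 81. Against controls of their own library set 5 of 90 were called, and with all wild-type controls 3. The 4.43% belongs to the controls outside the time course, and no such share is given for these choices.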

How the data were processed

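The 61 mouse stembryo RNA-seq libraries were analysed. Groups and replicate numbers came from the sample titles. The authors made stranded poly-A libraries from pooled stembryos, trimmed reads with cutadapt 1.16, aligned them to mm10 with STAR 2.7.7a, kept uniquely mapped reads and ran Cufflinks 2.2.1 with default parameters on an annotation based on Ensembl. The deposited values are FPKM per gene, scaled by the authors to mapped fragments and transcript length, each with a 95% interval. The table of the whole series and the tables of single libraries held the same values, once the lines of the 25 identifiers that occur more than once in the latter were summed.

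From these, log2(FPKM + 0.1) was fitted in R 4.3.3 by limma 3.58.1. The model had 1 coefficient for each of 28 groups, over the 17098 genes with a mean of at least 1 FPKM in at least 1 group. P-values were two-sided, adjusted by Benjamini-Hochberg over all genes of a comparison, and called under 0.05. Differences are on the log2(FPKM + 0.1) scale, which understates changes of low genes. In the wt controls of 96 h and 120 h, deviations of same-numbered libraries from their group means correlated over genes with r of 0.56, 0.57, 0.58 and 0.89. Replicates 1 and 2 correlated as highly across numbers, with r of 0.56 and 0.57, so for them the numbers do not show a pairing. Replicates 3 and 4 had their highest r with the same number. Replicate 4 was also the only control of these stages with low mt-Co3. Mutants were compared with those wt libraries of the same stage that lay outside the time course. In data simulated at the group sizes of 168 h against 72 h, 83% of genes changed by 1 on the log2 scale were recovered and 92% of those changed by 2. At those of Del(CBS1) at 120 h they were 82% and 91%. The changed genes were drawn from those with a mean log2(FPKM + 0.1) above 1, and the noise was independent between libraries. Recovery of lower genes, or with library sets, was not simulated. Depth, which the tables do not give, was inferred from the steps of 1 fragment in low FPKM values, over genes with 1 long transcript and up to 10 fragments, and 3 fragments or fewer counted as not detected. Such limits cover counting error only. The alternatives were other pseudocounts, filters, scaling and limma options, a replicate block, fewer libraries and other controls.

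All 10 receptors were named, with the ephrins and other Eph receptors that passed the filter, up to 2 genes of each further list with the largest change and the 3 genes closest to each receptor. Mesp2, Pou5f1, Sox2, Fgf4 and Nanog were named after their values were seen, as members of their lists. The receptors and lists were chosen with earlier results of these data known. The RefSeq promoter windows are on GRCm38.p6. The stage of a library was estimated as the hour at which the time course, interpolated between stages, was closest to it, over 6167 genes. Other assays were not analysed here.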

Additional observations from a re-analysis of the deposited data

Results flagged for a closer look

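Of 20 groups of 4 wild-type libraries examined (10 receptors at 96 h and 120 h), 3 held a library far from the others by Dixon's ratio. The nominal rate of about 1 in 20 is for independent groups, and these shared their libraries. The share over all genes is not given here, so this count sets no receptor apart from other genes. All 3 were replicate 4 of the controls, the only one of the library set with low mt-Co3: Epha4 at 40.3 FPKM at 96 h (ratio 0.902), Epha4 at 18.7 FPKM at 120 h (0.847) and Epha3 at 0.824 FPKM at 120 h (0.889).

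A mutant's effect differed between stages, by limma's test of the difference, in 11 cases. In Del(CBS1-5), 144 h against 120 h, the differences on the log2 scale were 1.85 for Epha2 (adjusted p = 0.00254) and 2.25 for Epha3 (0.00103). Epha1 had 3.41 there (0.0178) and 3.74 in Del(CBS4), 144 h against 120 h (0.00837), and these were 0.69 and 1.02, neither called, with the wt library listed at 0 left out. Del(CBS4) also had 1.34 for Epha2 (0.0311), -0.96 for Ephb1 (0.0151) and 0.55 for Ephb3 (0.0345). In Del(sub-TAD1), 120 h against 96 h, they were -1.43 for Epha2 (0.00478), 1.15 for Epha3 (0.0270) and -0.55 for Ephb3 (0.00663). In Ins(2xCBS-d4d8), 120 h against 96 h, Ephb2 had -0.65 (0.0154). Of the 11, those of Epha2 and Epha3 in Del(CBS1-5) and of Epha2 and Ephb3 in Del(sub-TAD1) remained without any 1 library. In Del(CBS1-5), Del(CBS4) and Del(sub-TAD1) the library set of the mutant or of its controls differed between the stages, and its part was not tested.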

How the results depend on the processing

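The counts of calls stayed within 1.5 times the reported ones under other pseudocounts, filters, scaling and limma options. The replicate block gave 10 of 10 (F test), 33 (neighbouring stages), 9 (168 h against 72 h), 10 (controls, 120 h against 96 h), 39 (mutants) and 14 (effects between stages) and lost none of the 90 single calls. In the wt controls of 96 h and 120 h, whose same-numbered libraries correlated, the block changed no call of a receptor. Other groups share a number only: in the time course same-numbered libraries correlated in their deviations with r from -0.09 to 0.13 (median 0.01), and those of Del(sub-TAD1) at 96 h with wt of 96 h from -0.03 to 0.08. Leaving out each replicate number in turn gave 5 to 7 in the F test, 1 to 3 for neighbouring stages, 6 to 8 for 168 h against 72 h, 4 to 10 for the controls, 0 to 38 for mutants and 0 to 15 for effects between stages. Replicate 1 or 2 leaves 1 library in most groups, each assumed to vary like the others, so that fewer samples were compared. With the compared groups alone in the fit, neighbouring stages had 4, mutants 7 and effects between stages 0 calls, and 64 of the 90 single calls were lost. With all wild-type controls mutants had 20 calls and effects between stages 3, and effects between stages had 5 against controls of their own library set. The direction reversed for Epha5, 108 h against 96 h, without replicate 2 (-0.26, against 3.87 without replicate 1), and, with controls of the same library set, for Ephb2 at 96 h in Del(sub-TAD1) (-0.0888) and Ins(2xCBS-d4d8) (-0.0674). The cause was not tested.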
